A study of Mus musculus with 30 samples.

Results

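The genes of the CD40 and CD40 ligand axis, 3 of the 17097 genes on the arrays, were Cd40lg, which encodes CD40 ligand, Cd40, which encodes its receptor, and Il12b, which encodes the p40 subunit shared by interleukin-12 and interleukin-23. They were chosen by name, as genes with a probe set annotated to that symbol alone, and where several probe sets fitted, the brightest on average across all 30 arrays was used. Cd40lg was followed in CD4+ T cells, and Cd40 and Il12b in CD11c+ cells. The animals were DO11.10 RAG2-/- mice (BALB/c), aged 8 to 10 weeks, whose T cells bear a transgenic receptor for an ovalbumin (OVA) peptide. Loss of RAG2 stops rearrangement of the animals' own antigen receptor genes, so neither B cells nor other T cells form, in the control groups as in the rest.

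For each fraction there were 5 groups of 3 arrays. Beside the unimmunised mice, primed mice received 100 micrograms of OVA subcutaneously in complete Freund's adjuvant, and 2 further primed groups also received either control IgG or abatacept, each at 10 mg/kg. Mice of the remaining group were orally tolerised through OVA dissolved in their water, and no injected OVA dose is listed for them. Abatacept (CTLA-4 joined to an immunoglobulin Fc part) occupies CD80 and CD86 and so withholds the CD28 signal from T cells. Harvest was on day 10, with no day listed for unimmunised mice. The source of CD4+ T cells, purified by removal of other cells, was the axillary nodes for all 3 primed groups, the mesenteric nodes for tolerised mice, and a pool of nodes and spleen for unimmunised mice. Tissue and treatment therefore cannot be told apart in CD4+ comparisons that involve tolerised or unimmunised mice. CD11c+ cells were pulled out with CD11c microbeads from lymph nodes and spleen together in all 5 groups, so the fraction holds any cell bearing CD11c. The labels do not say that the arrays of a group come from separate mice, so p-values measure the spread between these arrays, which may be technical.

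CD40 ligand is a membrane protein of the tumour necrosis factor family that appears on CD4+ T cells for a limited time after their antigen receptor is engaged, and CD28 adds to its induction. It binds CD40 on dendritic cells, macrophages and B cells, whose tail recruits TRAF adaptors and turns on both NF-kappaB pathways. A dendritic cell licensed in this way raises costimulatory ligands and chemokines and, with a microbial signal beside CD40, makes interleukin-12, which steers T cells toward a Th1 state.

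The Il12b promoter is shown because p40 transcription is the step at which NF-kappaB, activated through CD40, is known to act on this axis. Of the 3 genes, Il12b had an entry in the RefSeq promoter table (GRCm38.p6, chr11:44399813-44400062, plus strand, the 250 bases before the start site). Capitals mark 3 motifs found by searching both strands, ATTCCCC, part of a known NF-kappaB element, at 128 to 122 bases before the start site, TTGCAA, a C/EBP core that reads the same on both strands, at 93 to 88 bases, and TATAA at 28 to 24 bases.

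Il12b: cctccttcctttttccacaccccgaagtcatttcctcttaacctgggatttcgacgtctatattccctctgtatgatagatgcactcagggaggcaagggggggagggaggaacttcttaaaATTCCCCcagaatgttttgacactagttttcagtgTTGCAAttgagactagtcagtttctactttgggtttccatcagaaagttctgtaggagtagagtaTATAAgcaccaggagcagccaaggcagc

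Among 32851 promoter windows of the same length, ATTCCCC was present in 2.96%, TTGCAA in 5.34% and TATAA in 22.8%. The full NF-kappaB consensus had no match in the Il12b window and was present in 7.25% of all windows. None of the motifs overlapped another, and a match of letters is a description, not a binding site.

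All values are log2 expression, and 1 unit is a doubling of signal. The array medians, which stand here for the level below which a gene was not shown to be above background, ran from 4.4555 to 4.544, and a difference from a group below them is not an exact size. Depth is not a property of arrays, and the 3 arrays of a group limit the precision of every value below. Group differences were tested with limma over the 15 arrays of a cell type, with a call meaning an adjusted p (Benjamini-Hochberg) under 0.05 over all genes tested, 10322 for CD4+ and 10203 for CD11c+ arrays. Of the 7 T cell markers on the array, all were above the median on every CD4+ array, with a mean of 10.27 in primed and 8.81 in unimmunised arrays. Unimmunised CD4+ arrays also carried neutrophil markers at a mean of 10.74 (3.83 to 5.20 in the other groups) and red pulp macrophage markers at 8.72 (3.36 to 4.25). The Y-linked gene Eif2s3y read 8.50 to 8.82 in CD4+ primed, 8.84 to 8.96 in CD4+ tolerised and 8.53 to 8.64 in CD11c+ primed arrays, 8.76, 5.92 and 8.20 in the CD11c+ control IgG arrays, and under 3 on all others. Xist, transcribed from the inactive X chromosome, read 4.12 to 4.84 on CD11c+ primed, 6.29, 11.02 and 8.88 on CD11c+ control IgG, 9.31 to 10.89 on CD4+ primed and 5.61 to 7.28 on CD4+ tolerised arrays, and over 10.9 on all others. Both transcripts were thus above the array medians on all CD4+ primed, CD4+ tolerised and CD11c+ control IgG arrays, so Eif2s3y as a covariate does not stand for sex alone, no label used here states a sex, and whether animals or RNA were mixed was not tested. The salivary genes Amy1 and Bpifa2 had array means of 5.52 to 11.47 in CD11c+ control IgG mice, up to 12.18, 7.80 and 8.07 on 1 array each of unimmunised, abatacept and tolerised mice, and 2.60 to 2.76 in primed mice.

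Cd40lg transcript in CD4+ T cells was highest after priming, intermediate under abatacept and lowest in tolerised mice. Arrays of primed mice read 8.54, 8.60 and 8.35, a mean of 8.50 ± 0.13 (SD, n = 3). Primed mice given control IgG read 8.39, 8.39 and 8.14 (8.30 ± 0.15), and primed mice given abatacept read 7.84, 7.92 and 8.08 (7.95 ± 0.12). Every abatacept array lay below every array of the primed and control IgG groups, while the primed and control IgG arrays overlapped. Of all genes tested, 40.0% did not overlap between abatacept and primed arrays and 36.7% between abatacept and control IgG arrays. Unimmunised arrays read 7.42, 7.07 and 6.78 (7.09 ± 0.32), and tolerised arrays read 6.30, 6.93 and 6.65 (6.63 ± 0.31). These lower groups overlapped each other, and neither reached the lowest abatacept array. The share of all genes that did not overlap with abatacept arrays was 64.2% for unimmunised and 34.5% for tolerised arrays.

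**Figure D1:**
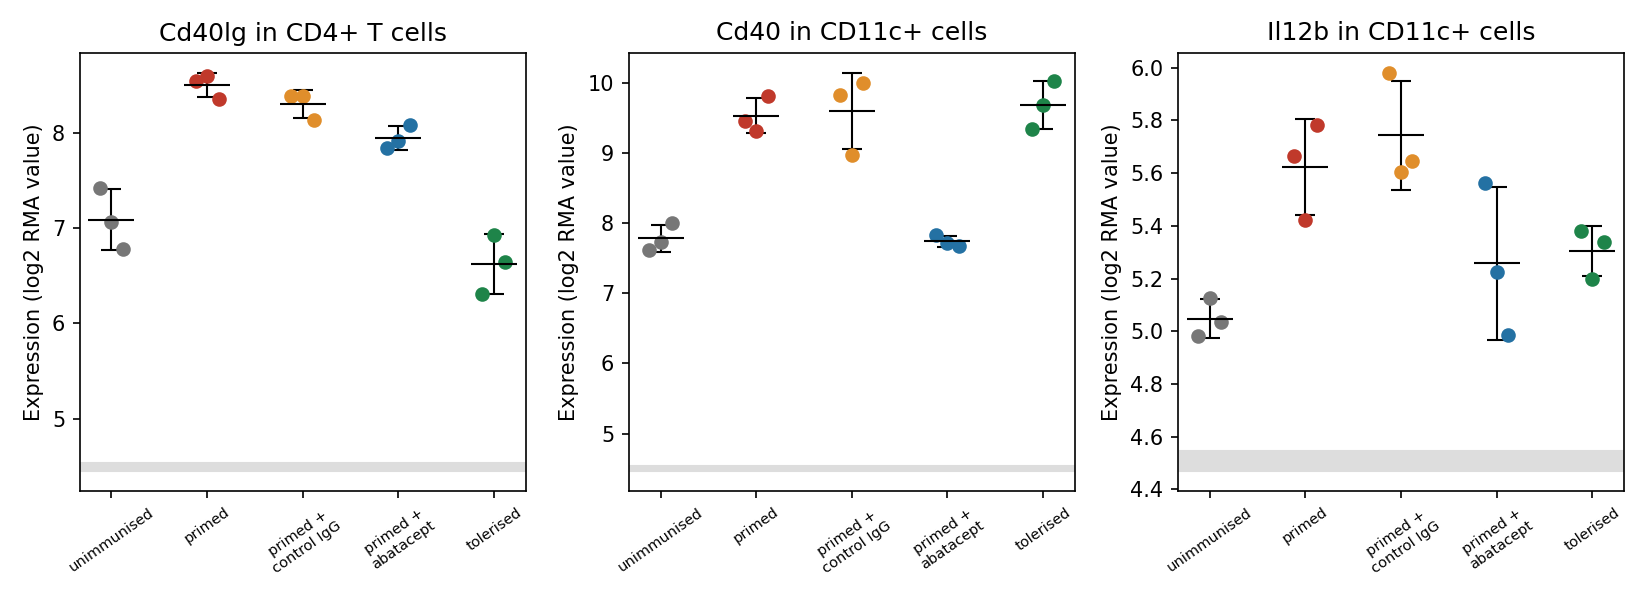
Log2 expression of Cd40lg in CD4+ T cells and of Cd40 and Il12b in CD11c+ cells, by group. Each point is 1 array, the wide line is the mean and the bar is the SD of 3 arrays; the grey band spans the array medians, and the vertical axes do not start at 0. Cd40lg was lowest in tolerised arrays (6.30 to 6.93), whereas Cd40 was lowest in unimmunised and abatacept arrays (7.62 to 8.00 and 7.67 to 7.83).

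Against unimmunised mice, Cd40lg rose 2.66-fold in primed mice (log2 difference 1.41, SE 0.17, adjusted p = 1.3e-05), in a comparison where 23.3% of all genes rose. It rose 2.32-fold in primed mice given control IgG (1.22, adjusted p = 4.8e-05; 23.6% of genes rose) and 1.81-fold in primed mice given abatacept (0.86, adjusted p = 0.00072; 23.4% rose). T cell markers rose over the same comparisons, 7 of 7 of those tested in each, by a median of 1.07 to 1.23. Taken relative to the mean of those markers on each array, the Cd40lg difference was -0.04 in primed (adjusted p = 0.81), -0.20 in control IgG (adjusted p = 0.29) and -0.53 in abatacept arrays (adjusted p = 0.011). That scale moved the median of all genes by between -1.39 and -1.43 in these comparisons, and on it 96.9% of genes fell in abatacept arrays. Markers of other cells, high in unimmunised CD4+ arrays, moved with these results too. With the monocyte and macrophage marker mean as a covariate the differences were 0.28, 0.01 and -0.49 (adjusted p = 0.84, 1 and 0.76), and with Eif2s3y as a covariate primed minus unimmunised was 1.53 (adjusted p = 0.87). Over all 10322 genes, the marker covariate took the calls from 4896, 5069 and 5978 to 501, 374 and 341. The Eif2s3y covariate left 0 genes called for primed minus unimmunised. These losses are therefore not particular to Cd40lg. In bulk samples, fewer cells of a type and less RNA per cell cannot be told apart.

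Of the 10 comparisons, that of oral tolerance with priming gave the largest Cd40lg difference. Tolerised arrays were 3.66-fold below primed arrays (log2 difference -1.87, SE 0.17, adjusted p = 1.8e-05; 8.43% of genes fell) and 3.20-fold below control IgG arrays (-1.68, adjusted p = 3e-05; 7.26% fell). Both differences kept their call relative to T cell markers, where tolerised minus primed was -1.55 (adjusted p = 5.2e-05; 2.47% of genes fell). Tolerised and primed arrays both had high Eif2s3y, whereas control IgG arrays did not, and with it as a covariate tolerised minus control IgG was -1.55 (adjusted p = 0.88). The abatacept group stood 2.49-fold above the tolerised group (1.32, adjusted p = 0.00011; 7.54% of genes rose), a call lost with the Eif2s3y covariate (1.19, adjusted p = 0.89). With that covariate 0 of 10322 genes were called for tolerised minus control IgG and 1 for abatacept minus tolerised. Cd40lg was also called lower in tolerised than in unimmunised mice, 1.38-fold (-0.46, adjusted p = 0.036; 29.3% fell), although their arrays overlapped. That call was lost without tolerised replicate 1 (-0.30, adjusted p = 0.16) or 3 (-0.47, adjusted p = 0.067), or unimmunised replicate 1 (-0.30, adjusted p = 0.17) or 2 (-0.47, adjusted p = 0.069).

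Cd40lg was lower by a small amount with abatacept, and the call depended on the comparator. Against primed mice the fall was 1.47-fold (log2 difference -0.55, adjusted p = 0.032; 17.4% of genes fell). Leaving out abatacept replicate 1 or 2 or primed replicate 1 or 2 gave -0.50, -0.54, -0.53 and -0.50 in that order, with adjusted p = 0.08, 0.085, 0.094 and 0.089. Against control IgG, the matched control, the difference was -0.36 (95% interval -0.72 to 0.01, adjusted p = 0.17), although the arrays of these groups did not overlap, as was so for 36.7% of all genes tested. Control IgG and primed mice did not differ beyond their spread (-0.19, interval -0.56 to 0.17, adjusted p = 0.79; 0.0872% of genes were called). The plot of differences shows these intervals beside those of Cd40 and Il12b. Comparisons that share a group share its arrays, so they are not independent of each other.

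**Figure D2:**
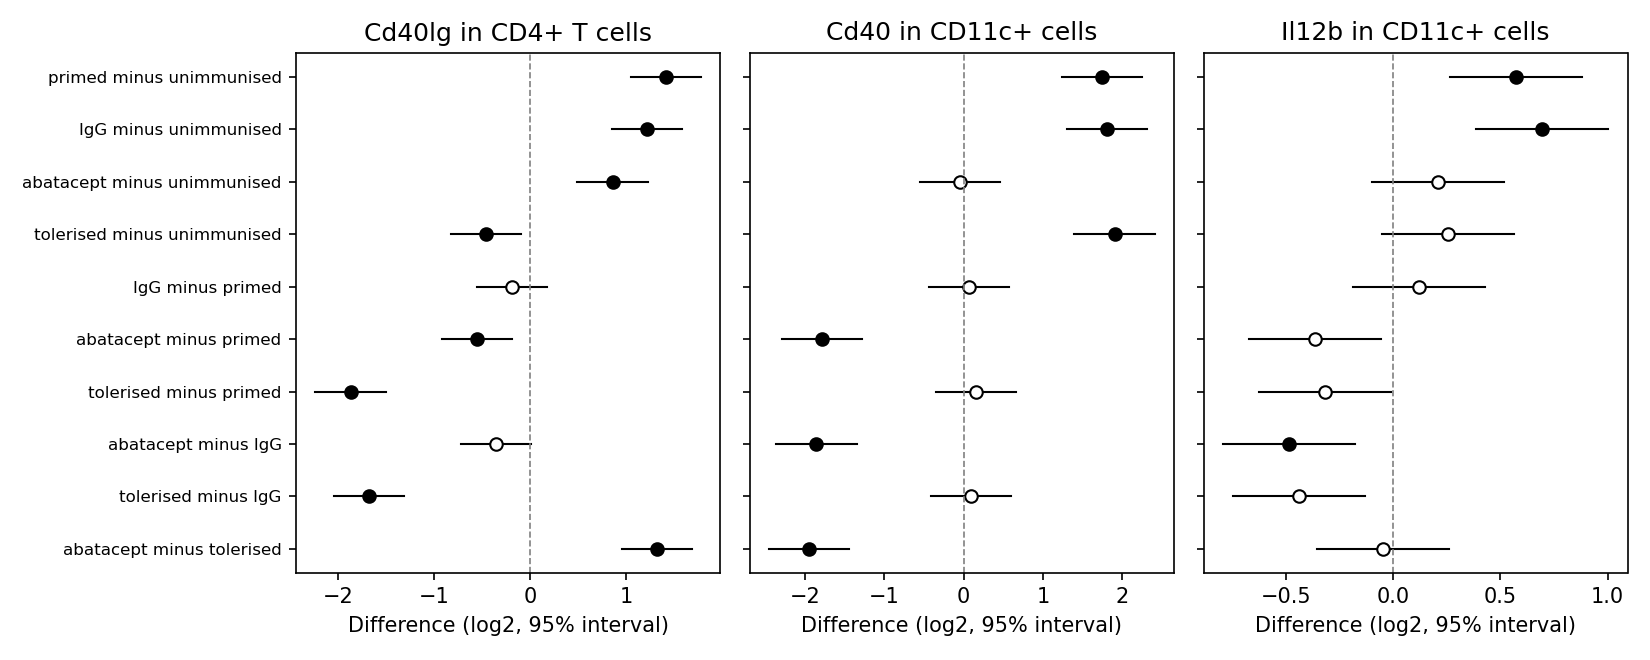
Log2 difference between groups for Cd40lg in CD4+ T cells and for Cd40 and Il12b in CD11c+ cells, in all 10 comparisons. Points are differences of means of 3 arrays, bars are 95% intervals from limma, and filled points have an adjusted p under 0.05. Tolerised minus primed was -1.87 for Cd40lg and 0.16 for Cd40, and abatacept minus IgG was -0.36 for Cd40lg and -1.86 for Cd40.

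Several helper T cell genes that act beside Cd40lg moved the other way in tolerised mice. Of 13 listed genes 11 were tested, and relative to primed mice 5 rose and 1 fell (median log2 difference 0.59, -0.05 for all genes; 6.24% of all genes rose). The costimulatory ligand gene Tnfsf4 (OX40 ligand) rose from 4.64 ± 0.19 to 6.86 ± 0.91 (SD, n = 3; difference 2.21, adjusted p = 0.0012). The follicle-homing receptor gene Cxcr5 rose by 2.42 (adjusted p = 0.0024), and Pdcd1, which encodes the inhibitory receptor PD-1, rose by 0.93 (adjusted p = 0.0071). Icos, a costimulatory receptor gene, fell by 0.67 (adjusted p = 0.0043). The count of rises ran from 3 to 6 when single arrays were left out, with primed replicates 2 and 3 and tolerised replicates 1 and 2 each moving a count by over 1.5 times. Tissue differed between these groups, as for Cd40lg. Markers of other cells also rose in tolerised arrays, 5 of 5 tested for mast cells and basophils (group means 3.35 in primed and 5.79 in tolerised arrays), 4 of 6 for red pulp macrophages (3.41 and 4.25), 3 of 6 for natural killer cells (6.09 and 7.21) and 2 of 6 for dendritic cells (4.12 and 4.67), and their part in these results was not tested.

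Under abatacept, 6 of the 11 helper genes fell and 1 rose relative to control IgG (median -0.48, -0.07 for all genes; 13.4% of all genes fell and 3.33% rose). Icos fell by 1.89 (adjusted p = 7.7e-07), from 11.34 ± 0.19 to 9.45 ± 0.30 (SD, n = 3). The growth factor gene Il2 was called lower (adjusted p = 0.00038), from 5.59 ± 0.06 to 4.10 ± 0.27, which is below the array medians, and Tnfsf11, which encodes RANK ligand, a relative of CD40 ligand that also acts on dendritic cells, fell by 1.33 (adjusted p = 0.0014). Tnfsf4 rose by 1.89 (adjusted p = 0.003). The cytokine genes Il21 and Il4 did not pass the filter on low values, with group means of 3.25 to 3.95 and 3.23 to 3.65. Against unimmunised mice, 11 of the 11 rose in primed, 10 in control IgG, 10 in abatacept and 11 in tolerised mice, where 23.3%, 23.6%, 23.4% and 20.3% of all genes rose. However, Tnfsf4, Cxcr5, Pdcd1, Il2 and Tnfsf11 among the 11 lay below the array medians in unimmunised mice and were tested because other groups were high. Relative to T cell markers 6, 7, 5 and 9 rose and 1, 1, 3 and 0 fell. On that scale 0.794%, 0.698%, 0.543% and 1.98% of all genes rose and 97.1%, 97.2%, 96.9% and 93.9% fell.

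**Figure D3:**
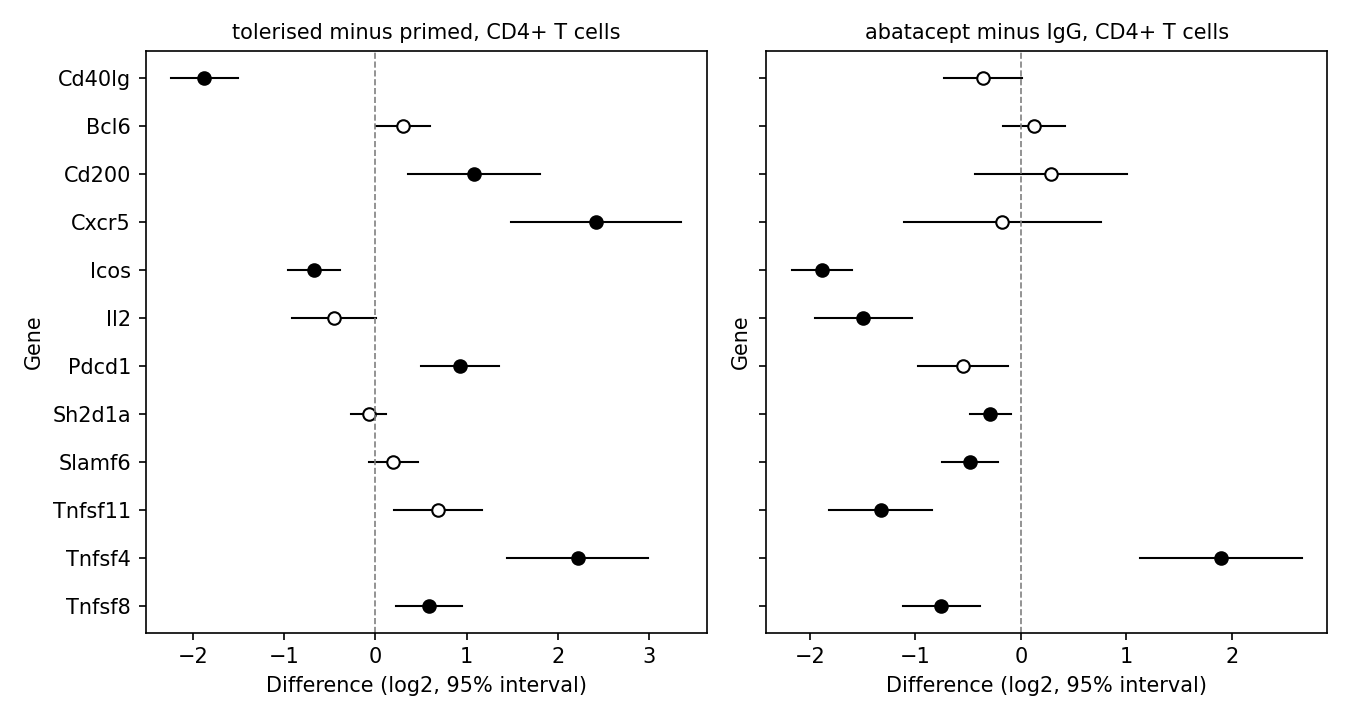
Log2 difference in CD4+ T cells for Cd40lg and the 11 tested helper genes, tolerised minus primed on the left and abatacept minus IgG on the right. Points are differences of means of 3 arrays, bars are 95% intervals from limma, and filled points have an adjusted p under 0.05. Cd40lg fell by 1.87 in tolerised arrays where Tnfsf4 and Cxcr5 rose by 2.21 and 2.42, and under abatacept Icos fell by 1.89 while Cd40lg did not pass the threshold.

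Genes reported to raise Cd40lg transcription or to stabilise its mRNA, 16 on the list and all tested, moved in both directions. Relative to primed mice, 5 rose and 2 fell in tolerised mice (median 0.04; 6.24% of all genes rose and 8.43% fell). The rises included Egr1, an early transcription factor gene of receptor signalling (1.35, adjusted p = 8.2e-05), Nfatc1, a calcium-driven factor gene (0.81, adjusted p = 0.00065) and Tbx21, the Th1 factor gene (0.96, adjusted p = 0.0013), and the falls included Icos. Tissue differed between these groups and markers of other cells rose in tolerised arrays, and their part in these changes was not tested. Under abatacept relative to control IgG 4 rose and 5 fell (median 0.07; 3.33% of all genes rose and 13.4% fell), with Il2ra, the interleukin-2 receptor alpha chain gene, down by 2.20 (adjusted p = 2.3e-06) and the early factor genes Fos and Egr1 up by 2.27 (adjusted p = 1.1e-05) and 0.87 (adjusted p = 0.0017). These abatacept counts ran from 2 to 4 and from 3 to 5 when single arrays were left out, and each of the 6 arrays compared moved a count by over 1.5 times. Icos, Stat4 and Tbx21 belong to this list and to others described here.

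Interleukin-12 responsiveness was read in CD4+ T cells from 10 tested genes of 11. Il12rb1, a receptor chain gene, averaged 4.05 ± 0.40 in unimmunised, 5.26 ± 0.25 in primed, 5.20 ± 0.09 in control IgG, 4.64 ± 0.17 in abatacept and 5.24 ± 0.05 in tolerised arrays (SD, n = 3). It fell by 0.56 under abatacept relative to control IgG (adjusted p = 0.04), as did Stat4, the factor that carries the interleukin-12 signal, by 0.39 (adjusted p = 0.012). The other chain gene, Il12rb2, differed by 0.01 (adjusted p = 0.98). In that comparison 6 genes fell and 0 rose (median -0.46, -0.07 for all genes; 13.4% of all genes fell and 3.33% rose), led by Cxcr3, a Th1 chemokine receptor gene, at -3.21 (adjusted p = 1.2e-07). The count of falls ran from 3 to 6 when single arrays were left out, and abatacept replicate 2, control IgG replicates 1 and 3 and primed replicate 1 each moved a count by over 1.5 times. The Il12rb1 call was lost when any 1 of 7 arrays was left out, and that of Stat4 without abatacept replicate 3 or control IgG replicate 3 (adjusted p = 0.055 each). The Th1 cytokine gene Ifng averaged 4.22 ± 0.62 in primed, 3.94 ± 0.40 in control IgG, 4.53 ± 0.23 in abatacept, 5.96 ± 0.09 in tolerised and 6.25 ± 0.09 in unimmunised arrays (SD, n = 3). Its means thus lay below or near the array medians in the 3 primed groups, so it was called higher in tolerised than in primed mice (adjusted p = 0.00064) with no exact size. Natural killer markers had means of 6.09, 5.99, 6.45, 7.21 and 8.18 in the same order of groups, and their part in the Ifng levels was not tested.

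Cd40 transcript in CD11c+ cells fell into a high and a low set of groups. Arrays of primed mice read 9.46, 9.32 and 9.81 (9.53 ± 0.25; SD, n = 3), those given control IgG read 9.83, 8.97 and 9.99 (9.60 ± 0.55), and tolerised mice read 9.35, 9.69 and 10.03 (9.69 ± 0.34). Unimmunised mice read 7.62, 7.73 and 8.00 (7.79 ± 0.20), and primed mice given abatacept read 7.83, 7.72 and 7.67 (7.74 ± 0.08). The lowest array of the high set, control IgG replicate 2, stood above the highest array of the low set. That array also had the lowest Eif2s3y of the control IgG group and the lowest dendritic cell marker mean of the high set, 8.43. The other Cd40 probe set gave the same division, at 8.35 to 9.46 in the high and 7.07 to 7.30 in the low set. Between any group of the high set and any of the low set, 36.9% to 52.0% of all genes did not overlap.

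Priming raised Cd40 3.35-fold over unimmunised mice (log2 difference 1.74, SE 0.23, adjusted p = 0.00012; 25.5% of all genes rose). The rise was 3.51-fold with control IgG (1.81, adjusted p = 0.00015; 23.9% rose) and 3.74-fold in tolerised mice (1.90, adjusted p = 2.9e-05; 31.9% rose). Tolerised and primed mice did not differ in Cd40 beyond their spread (0.16, interval -0.35 to 0.66, adjusted p = 0.78; 2.84% of genes were called), nor did tolerised and control IgG mice (0.09, interval -0.41 to 0.60, adjusted p = 0.85; 8.70% called) or control IgG and primed mice (0.07, interval -0.44 to 0.57, adjusted p = 0.96; 0.0196% called). These intervals leave room for differences of up to about 0.66 on the log2 scale.

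With abatacept, Cd40 fell 3.62-fold relative to control IgG (-1.86, SE 0.23, adjusted p = 0.00084; 8.86% of genes fell). It fell 3.45-fold relative to primed mice (-1.79, adjusted p = 0.00029; 13.3% fell) and 3.86-fold relative to tolerised mice (-1.95, adjusted p = 4.7e-05; 20.9% fell). The abatacept group did not differ from the unimmunised group beyond the spread (-0.04, interval -0.55 to 0.46, adjusted p = 0.94; 2.34% of genes were called). Leaving out single arrays moved the abatacept minus control IgG difference between -2.17 and -1.66, and every such fit called it.

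Markers of dendritic cells moved with Cd40. The 8 of 10 listed markers on the array had a mean of 7.66 to 7.81 on unimmunised, 8.95 to 9.03 on primed, 8.43 to 8.75 on control IgG, 7.90 to 8.11 on abatacept and 8.57 to 8.73 on tolerised arrays. Flt3, the receptor gene of the dendritic cell lineage, and Itgax, which encodes CD11c, were above the array median on every CD11c+ array, Itgax at 9.56 to 10.29. Red pulp macrophage markers ran the other way, at array means of 10.83 to 11.07 in unimmunised and abatacept mice and group means of 10.27 in control IgG, 10.01 in primed and 9.44 in tolerised mice. B cell markers, of which 5 were on the array, had means of 4.46 to 4.90, and at most 2 of the 5 were above the median throughout a group. Relative to the dendritic cell marker mean, Cd40 was still higher in primed (0.48, adjusted p = 0.039), control IgG (0.90) and tolerised mice (0.95) than in unimmunised mice, and still lower under abatacept than with control IgG (-1.21, adjusted p = 2e-04). On that scale 1.08%, 1.91% and 3.36% of all genes rose in these 3 groups and 1.48% fell under abatacept, as it moved the median of all genes by -1.18 with priming and by 0.62 for abatacept minus control IgG. Eif2s3y was low in unimmunised, abatacept and tolerised arrays alike, and with its level as a covariate tolerised minus unimmunised was 1.89 and abatacept minus tolerised was -1.92, both called. The other 4 Cd40 calls were lost with that covariate, with values of 0.01 for primed and 0.35 for control IgG minus unimmunised, and -0.04 and -0.38 for abatacept minus primed and minus control IgG (adjusted p = 1 each). In these 4 comparisons the fit called 0, 1, 0 and 0 of 10203 genes, so this loss is not particular to Cd40. It called 4881 genes for tolerised minus unimmunised and 3740 for abatacept minus tolerised, where Cd40 kept its call.

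**Figure D4:**
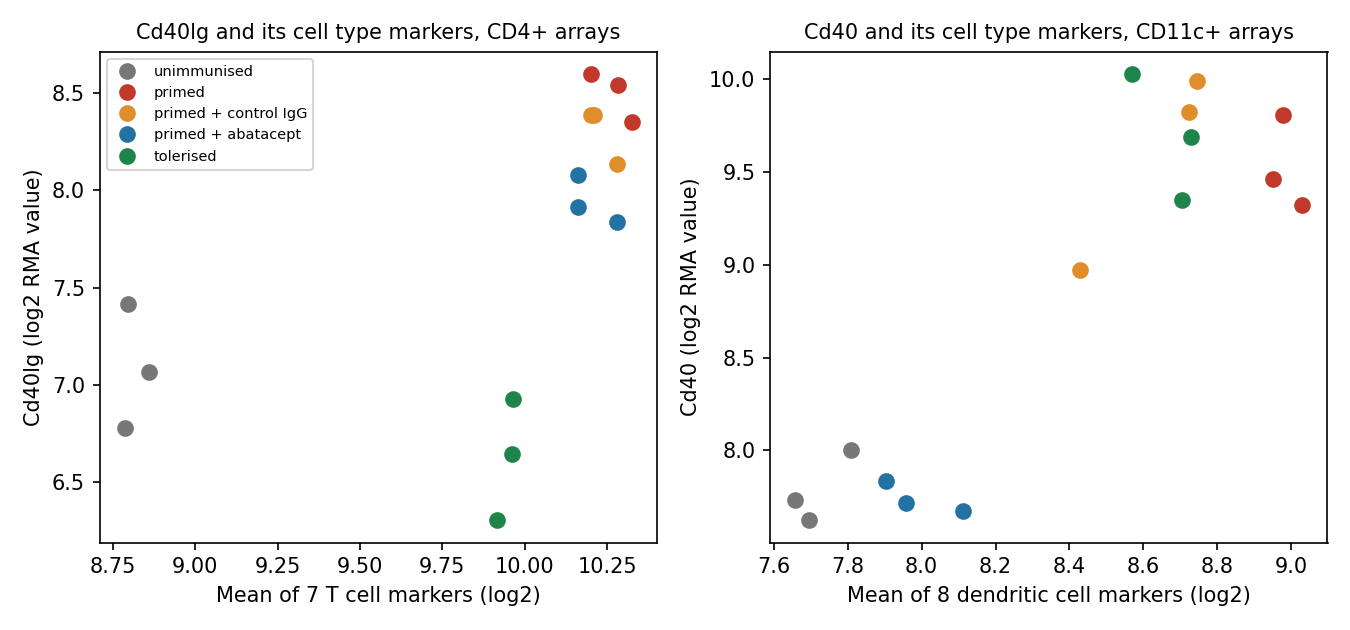
Log2 expression of Cd40lg against the mean of 7 T cell markers on CD4+ arrays (left) and of Cd40 against the mean of 8 dendritic cell markers on CD11c+ arrays (right). Each point is 1 array, coloured by group. The tolerised group had the lowest mean Cd40lg at T cell marker means of 9.92 to 9.97, and Cd40 was low on unimmunised and abatacept arrays, where dendritic cell markers were lowest.

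Most genes listed as carriers of the CD40 signal rose in the groups where the receptor rose. Of 21 listed adaptors, kinases and NF-kappaB genes 18 were on the array, and 14 rose in primed, 14 in control IgG and 15 in tolerised mice over unimmunised mice, with 0 falls in each (medians 0.52, 0.62 and 0.61, and 0.09, 0.09 and 0.10 for all genes). Of all genes, 25.5%, 23.9% and 31.9% rose in these comparisons and 13.2%, 10.5% and 16.7% fell. Traf1, an adaptor gene, rose from 8.79 ± 0.32 to 10.11 ± 0.20 with priming (SD, n = 3; adjusted p = 7.9e-05) and by 1.46 in tolerised mice (adjusted p = 1.8e-05). Relb, the NF-kappaB subunit gene of the slower, alternative pathway, averaged 6.04 ± 0.22 in unimmunised arrays and rose by 1.24 with control IgG and 1.07 in tolerised mice (adjusted p = 0.00035 and 0.00036). Relative to unimmunised mice 1 gene of the list was called under abatacept (2.10% of all genes rose), Jak3, which encodes a kinase reported to bind the CD40 tail (from 4.05, below the array medians, adjusted p = 0.028), and that call was lost without abatacept replicate 2 or 3 or unimmunised replicate 2.

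Relative to control IgG, 10 of the 18 signalling genes fell under abatacept and 0 rose (median -0.38, -0.02 for all genes), where 8.86% of all genes fell and 6.43% rose. Among the list genes that fell were Traf1 (-1.02, adjusted p = 0.0025), Relb (-1.10, adjusted p = 0.0028), Birc2, which encodes a ubiquitin ligase of the TRAF complex (-0.75, adjusted p = 0.003), and Tnfaip3, which encodes the feedback inhibitor A20 (-0.80, adjusted p = 0.004). Leaving out single arrays gave 8 to 14 falls. Rela, of the classical pathway, differed by -0.15 (adjusted p = 0.38; named after its value was seen). Relative to the dendritic cell markers the same list had 2 falls, Traf1 (-0.38, adjusted p = 0.015) and Relb (-0.45, adjusted p = 0.022), and 8 rises, where 1.48% of all genes fell and 85.2% rose. With priming on that scale it had 0 rises and 16 falls, where 93.8% of all genes fell. Between tolerised and primed mice limma called 0 of the 18 genes, and 0 also at an unadjusted p under 0.05, where 2.84% of all genes were called at the adjusted threshold.

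The maturation genes known to follow CD40 ligation moved unevenly. Of 20 listed genes 14 were tested, and 7 rose with priming, 9 with control IgG and 9 in tolerised mice over unimmunised mice, where 25.5%, 23.9% and 31.9% of all genes rose. Relative to dendritic cell markers 2 rose and 9 fell with priming, 4 rose and 5 fell with control IgG, and 4 rose and 6 fell in tolerised mice, a scale that shifted the median gene by -1.18 with priming. Of all genes, 1.08%, 1.91% and 3.36% rose on that scale and 93.8%, 88.7% and 86.4% fell. A fall was added to the rises with priming when tolerised replicate 1 or unimmunised replicate 2 was left out. The chemokine genes Ccl17 and Ccl22, whose products draw CCR4-bearing T cells to dendritic cells, moved most. Ccl17 averaged 5.97 ± 0.20 in unimmunised, 8.49 ± 0.44 in primed, 8.81 ± 0.91 in control IgG, 5.57 ± 0.43 in abatacept and 9.18 ± 0.59 in tolerised arrays (SD, n = 3). Ccl22 averaged 6.88 ± 0.46, 9.65 ± 0.42, 9.88 ± 0.68, 6.83 ± 0.18 and 10.05 ± 0.52 in the same order. Fscn1, which encodes the actin bundler of mature dendritic cells, rose by 1.26 with priming (adjusted p = 0.00018), and Pdcd1lg2, which encodes the PD-1 ligand PD-L2, was called higher (adjusted p = 0.00028), at 5.77 ± 0.23 in primed arrays against 4.15 ± 0.19 in unimmunised arrays, which is below the array medians.

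The CD28 ligand genes were not part of that rise. Cd80 averaged 6.35 ± 0.15 in unimmunised and 6.27 ± 0.37 in primed arrays (SD, n = 3; adjusted p = 0.81), and Cd86 averaged 9.48 ± 0.03 and 9.36 ± 0.11 (adjusted p = 0.35). In tolerised mice Cd86 fell by 0.40 (adjusted p = 0.0038; 16.7% of all genes fell) relative to unimmunised mice, as did Cd83, a maturation marker gene named after its value was seen, by 0.63 (adjusted p = 0.0023). Under abatacept relative to control IgG, 7 of the 14 genes fell, where 8.86% of all genes fell, among them Ccl22 (-3.05, adjusted p = 0.00047), Ccl17 (-3.24, adjusted p = 0.00082), Fscn1 (-1.30, adjusted p = 0.0014) and Pdcd1lg2 (adjusted p = 0.0017), whose abatacept mean of 4.23 was also below the array medians. Cd86 rose (0.37, adjusted p = 0.021; 6.43% of all genes rose), which was no longer called when abatacept replicate 1 or 2 or control IgG replicate 1 or 3 was left out (0.31 to 0.35, adjusted p = 0.073 to 0.11). Relative to dendritic cell markers 6 of the 14 rose and 5 fell, where 85.2% of all genes rose and 1.48% fell. All 4 of the genes that fell and are named here also fell relative to dendritic cell markers, Ccl22 by 2.40 and Ccl17 by 2.60.

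**Figure D5:**
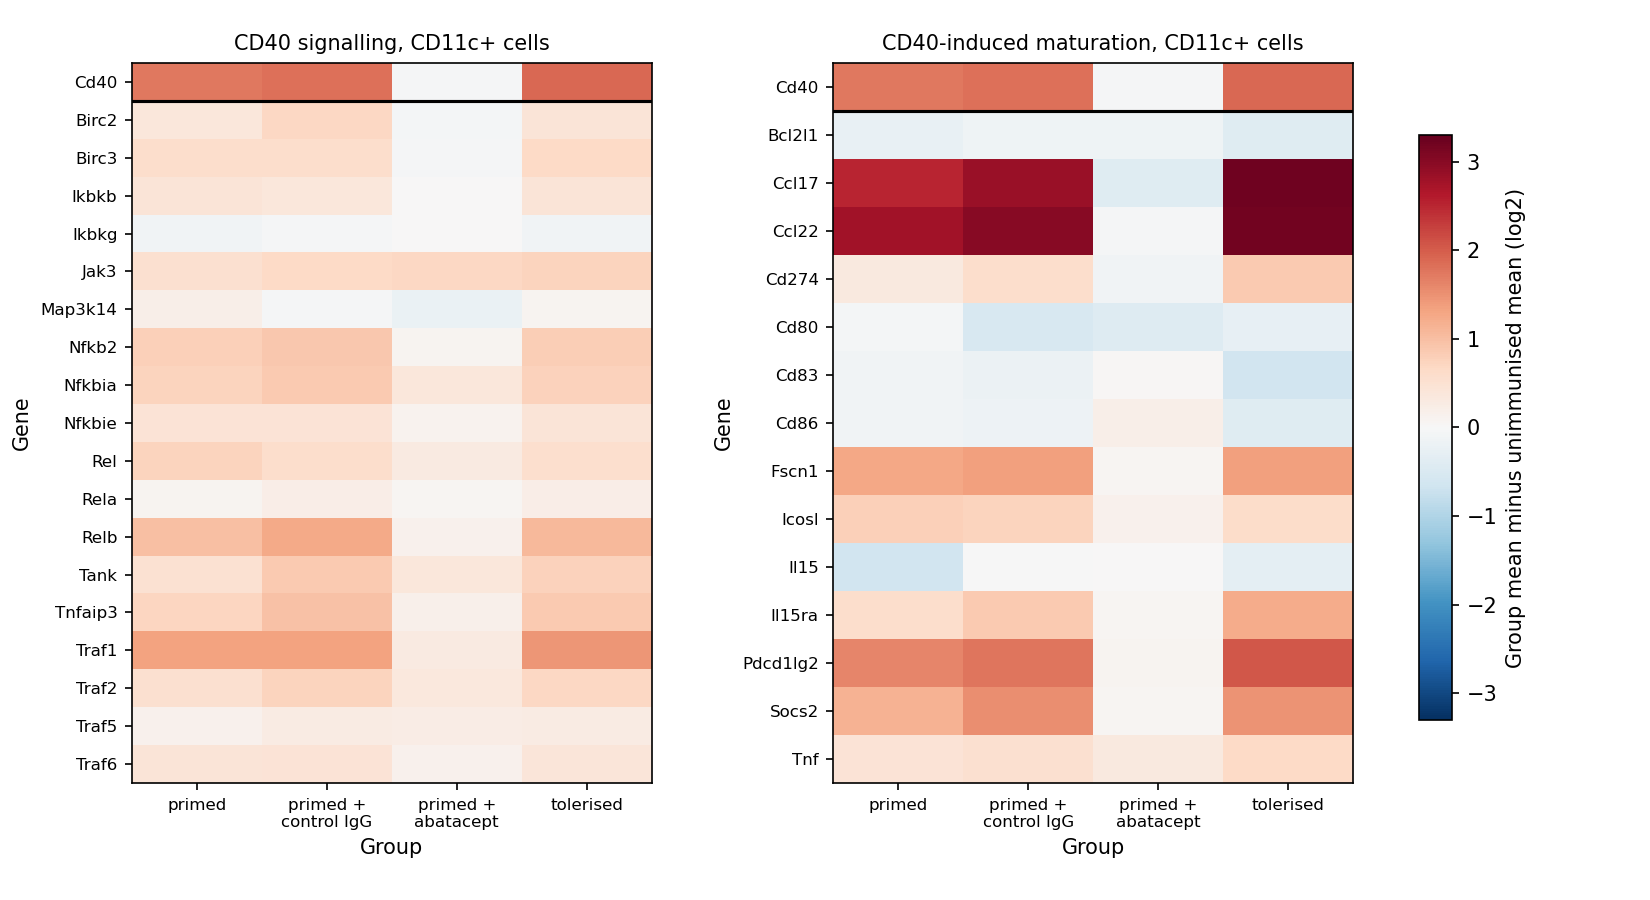
Difference of group means from the unimmunised mean (log2, colour scale from -3.3 to 3.3) in CD11c+ cells for Cd40 and the tested genes of CD40 signalling (left) and CD40-induced maturation (right). Rows are genes and columns are groups of 3 arrays; Cd40 is set above the black line. The abatacept column stays near 0, at -0.04 for Cd40 and Ccl22, while Cd40 reads 1.74, 1.81 and 1.90 in the primed, control IgG and tolerised columns.

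Il12b transcript in CD11c+ cells was low and moved less than Cd40. Unimmunised arrays read 4.98, 5.13 and 5.04 (5.05 ± 0.07; SD, n = 3), primed arrays 5.66, 5.42 and 5.78 (5.62 ± 0.18), and control IgG arrays 5.98, 5.60 and 5.65 (5.74 ± 0.21). Abatacept arrays read 5.56, 5.22 and 4.99 (5.26 ± 0.29), and tolerised arrays 5.38, 5.20 and 5.34 (5.31 ± 0.10). All 15 arrays lay above their array median. The primed and control IgG arrays lay above every unimmunised and tolerised array, and the abatacept arrays spread from the unimmunised range into the primed range. Of all genes tested, 51.2% did not overlap between primed and unimmunised arrays and 46.2% between control IgG and unimmunised arrays. Between tolerised arrays and these 2 groups the shares were 22.9% (primed) and 26.7% (control IgG).

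Il12b rose 1.49-fold with priming over unimmunised mice (log2 difference 0.57, SE 0.14, adjusted p = 0.0065) and 1.62-fold with control IgG (0.69, adjusted p = 0.0028), in comparisons where 25.5% and 23.9% of all genes rose. T cell markers in CD11c+ arrays averaged 5.75 in unimmunised, 6.45 in primed and 6.42 in control IgG mice, and with their mean as a covariate these differences were 0.45 and 0.57 (adjusted p = 0.22 and 0.14). That covariate took the calls over all 10203 genes from 3941 and 3509 to 964 and 605. With Eif2s3y as a covariate the Il12b differences were -0.09 and 0.14 (adjusted p = 1 each), the first with its direction turned, in fits that called 0 and 1 of 10203 genes. In tolerised mice the difference from unimmunised mice was 0.26 (interval from limma, -0.05 to 0.57, adjusted p = 0.15), in the group where Cd40 rose by 1.90. Il12b fell 1.40-fold under abatacept relative to control IgG (-0.49, adjusted p = 0.036), where 8.86% of all genes fell. This call was also lost in a fit without the unimmunised arrays (adjusted p = 0.053). With the Eif2s3y covariate, which left 0 of 10203 genes called, the difference turned to 0.08 (adjusted p = 1). That call was lost without abatacept replicate 2 (-0.47, adjusted p = 0.10) or 3 (-0.35, adjusted p = 0.13) and without control IgG replicate 1 (-0.37, adjusted p = 0.15) or 3 (-0.54, adjusted p = 0.077). Relative to primed mice, abatacept minus primed was -0.36 (adjusted p = 0.077; -0.52, adjusted p = 0.02, without abatacept replicate 1) and tolerised minus primed was -0.32 (adjusted p = 0.27).

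The other Il12b probe set sat closer to background. It read 3.65 to 3.88 on unimmunised, 4.64 to 5.01 on primed, 4.73 to 5.55 on control IgG, 4.05 to 4.32 on abatacept and 4.34 to 4.52 on tolerised arrays, so only primed and control IgG arrays were all above their medians. With the unimmunised and abatacept groups and 2 of 3 tolerised arrays not above their medians, differences from these groups have no exact size on this probe set. Calls found on it but not on the first probe set were tolerised above unimmunised (adjusted p = 0.0032), abatacept below primed (adjusted p = 0.014) and tolerised below control IgG (adjusted p = 0.04). Relative to dendritic cell markers, primed minus unimmunised was -0.69 (adjusted p = 0.0013) on the first probe set, against a shift of -1.18 for the median gene on that scale. Neutrophil markers in CD11c+ arrays, which also differed, had means of 7.31 in unimmunised, 9.70 in primed, 8.53 in control IgG, 8.24 in abatacept and 9.84 in tolerised arrays, and their part in the Il12b result was not tested.

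The partner subunits of p40 could not be measured. Il12a, which encodes the p35 subunit of interleukin-12, and Il23a, which encodes the p19 subunit of interleukin-23, had group means of 3.29 to 3.69 and 2.42 to 2.57, below the array medians, and did not pass the filter. Ebi3 belongs to the same cytokine family and its product pairs with p28 in interleukin-27. It fell by 0.34 with priming (adjusted p = 0.023) and by 0.53 in tolerised mice (adjusted p = 0.0013), and rose by 0.41 under abatacept relative to control IgG (adjusted p = 0.023). The first of these calls was lost without primed replicate 2 or 3 or unimmunised replicate 2 or 3 (adjusted p = 0.061 to 0.084). The last was lost without abatacept replicate 1 or 2 or control IgG replicate 1 or 3 (adjusted p = 0.072 to 0.11).

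The ligand transcript was above background in CD4+ arrays alone, whereas Cd40 was above the array median on all 15 arrays of both fractions. In CD11c+ cells Cd40lg read 2.73 to 4.06 on the 15 arrays, below every array median, and it was not tested there. Cd40 in CD4+ arrays averaged 6.18 ± 0.41 in unimmunised, 6.04 ± 0.26 in primed, 6.02 ± 0.23 in control IgG, 6.31 ± 0.12 in abatacept and 6.92 ± 0.71 in tolerised arrays (SD, n = 3). Tolerised minus unimmunised was 0.73 there (adjusted p = 0.051). The tolerised arrays, at 7.64, 6.89 and 6.22, followed the order of Itgax on the same arrays, at 6.13, 5.36 and 4.45. Unimmunised CD4+ arrays, however, had higher Itgax, at 7.01, 7.02 and 7.04, with the lower Cd40 mean of 6.18. The part of cells bearing CD11c in these Cd40 values was not tested. Il12b in CD4+ arrays read 3.24 to 4.19 and was not tested. Between the fractions, Cd40 was higher in CD11c+ cells by 1.60 in unimmunised, 3.49 in primed, 3.58 in control IgG, 1.43 in abatacept and 2.77 in tolerised mice, and all 5 differences were called, where 66.4%, 63.2%, 65.7%, 68.7% and 60.1% of 10838 genes were called. The effects of treatment on Cd40 also differed between the fractions, by 1.89 for priming, 1.17 for tolerised minus unimmunised and -2.15 for abatacept minus control IgG, all called, as were 41.9%, 49.0% and 14.3% of all genes. For Cd40lg the effect of tolerised minus primed was called as different (11.2% of genes were), with no exact size, as the gene was below the medians in CD11c+ cells.

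CD40 ligand also binds integrins, and CD40 has relatives that signal through the same TRAF adaptors, so both families were read in CD11c+ cells. Of 7 integrin genes 4 were tested. Itgb3, the beta3 chain gene, rose with priming by 0.90 (adjusted p = 0.00032; 25.5% of genes rose). It fell under abatacept relative to control IgG by 0.79 (adjusted p = 0.0036; 8.86% fell), in the direction of Cd40. Itgav, its alpha chain partner gene, fell with priming by 0.69 (adjusted p = 0.00039; 13.2% of genes fell). Relative to dendritic cell markers, 0 of the 4 rose and 4 fell with priming, where 93.8% of all genes fell. On that scale 3 rose and 0 fell for abatacept minus control IgG, where 85.2% of all genes rose. Of 8 relatives 7 were tested, and with priming 2 rose and 3 fell, where 25.5% of all genes rose and 13.2% fell. The rises among the relatives were Tnfrsf13b and Tnfrsf13c, which encode receptors for the B cell survival factor BAFF (1.21, adjusted p = 3e-06, and 1.15, adjusted p = 9.6e-06). Tnfrsf14, which encodes the herpesvirus entry mediator, fell by 0.92 (adjusted p = 0.00035), and Tnfrsf1a, which encodes a receptor for tumour necrosis factor, fell by 0.43 (adjusted p = 0.002). Calls among these receptors went in both directions in the arrays where Cd40 rose, as did those over all genes. Tnfrsf13b and Tnfrsf13c were also called higher in abatacept than in unimmunised arrays, where Cd40 was not called and 2.10% of all genes rose. That count of 2 ran from 1 to 2 when single arrays were left out.

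Likeness of pattern was measured as Pearson's r over the 15 arrays of a cell type, whose points share groups and arrays. For Cd40 in CD11c+ cells the closest genes were the chemokine gene Cxcl16 (r = 0.988), Ccl17 (0.988), Il4i1, which encodes an amino acid oxidase (0.987), Ccl22 (0.986) and Pdcd1lg2 (0.986). Il12b had r = 0.672 with Cd40 over the same arrays, and its closest genes were Gmds (0.873), Pltp (0.860), Pard6a (0.860), Cdc37 (0.859) and Tti2 (0.858). For Cd40lg in CD4+ T cells they were S1pr4, a sphingosine-1-phosphate receptor gene (0.962), Axin2, a Wnt target gene (0.955), AI467606 (0.954), Pag1, which encodes a membrane adaptor (0.942), and Smad3, a TGF-beta signal carrier gene (0.940). Axin2 averaged 9.16 in primed, 8.65 in abatacept, 8.17 in unimmunised and 7.54 in tolerised arrays, the order of Cd40lg.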

How the data were processed

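RNA of 30 samples, 3 arrays for each of 5 groups and 2 cell types, was amplified and hybridised to Affymetrix perfect-match arrays. The deposited log2 values, 1 per probe set and array, are RMA output of the authors, as the submitters' processing notes record; no RMA version is named there. Scanner files were not used here. Of 45118 probe sets, 28898 carried a single gene symbol, 551 more than that and 15669 none; 28689 of the first kind were found in RefSeq by Entrez ID. Each of 17097 genes was read on its probe set with the highest mean.

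A gene was tested in a cell type if 3 or more of its 15 arrays exceeded their own median, with limma 3.58.1 in R 4.3.3 (lmFit, eBayes, 10 residual degrees of freedom, two-sided) in 10 comparisons per cell type, with Benjamini-Hochberg adjustment over all genes tested. Effects were compared between cell types over 30 arrays and 10838 genes. The procedure was tested on simulated data. The 3 genes and the 8 gene lists were chosen with earlier results of these data known, so they are not independent evidence. Named list members were at most 4 called genes with the smallest adjusted p per list and comparison, a fixed set of 14 genes, and the 5 genes most like each of the 3. Alternatives were no filter, array weights, a repeated quantile normalization, averaged probe sets, a fit on the arrays of both groups alone, a replicate block, single arrays left out, and covariates for Eif2s3y and for other-cell markers. After the data were seen, the other probe set, the scale relative to own-cell markers (T cell or dendritic cell), a salivary gene covariate, a fit without unimmunised arrays and list counts with single arrays left out were added. Promoter motifs and figures were made with Python 3.11.15 and matplotlib 3.10.9.

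Arrays of a group correlated at 0.983 to 0.995 over all probe sets, and no 2 arrays held the same values.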

Additional observations from a re-analysis of the deposited data

Results flagged for a closer look

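Effects that differed between the cell fractions were found with an interaction term over all 30 arrays (limma, adjusted over 10838 genes). The effect of priming over no immunisation on Cd40lg was 1.41 in CD4+ arrays and -0.13 in CD11c+ arrays, where the gene lay below the array medians, an interaction of -1.54 (adjusted p = 0.0017). For Cd40 the same effect was 1.74 in CD11c+ and -0.14 in CD4+ cells, an interaction of 1.89 (adjusted p = 0.00046). Tolerised minus unimmunised for Cd40 was 1.90 in CD11c+ and 0.73 in CD4+ cells, an interaction of 1.17 (adjusted p = 0.017). Tolerised minus primed for Cd40lg was -1.87 in CD4+ and 0.51 in CD11c+ cells, an interaction of 2.38 (adjusted p = 0.00015). Both Cd40lg interactions rest on the CD4+ change, since the CD11c+ values are at background, and their sizes are not exact. Abatacept minus control IgG for Cd40 was -1.86 in CD11c+ and 0.29 in CD4+ cells, an interaction of -2.15 (adjusted p = 0.00063). Of all genes, 41.9%, 49.0%, 11.2% and 14.3% were called for these interactions with priming, tolerised minus unimmunised, tolerised minus primed and abatacept minus control IgG. No interaction was called for Il12b, which lay below the array medians in CD4+ arrays. Tissue differed among the CD4+ groups of these comparisons, except in abatacept minus control IgG, and its part was not tested. Eif2s3y also differed by fraction. It read 8.76, 5.92 and 8.20 on CD11c+ control IgG arrays and was low on CD4+ control IgG and all abatacept arrays. On CD4+ tolerised arrays it read 8.84 to 8.96, and it was low on CD11c+ tolerised and all unimmunised arrays. Its part in these interactions was not tested.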

How the results depend on the processing

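With only the arrays of both groups compared, Cd40lg tolerised minus unimmunised was -0.462 (adjusted p = 0.11) and Il12b abatacept minus control IgG was -0.486 (0.10), both below the threshold of a call. The latter was also lost with no filter (-0.486, adjusted p = 0.051) and, in a fit added after the data were seen, without unimmunised arrays (-0.486, 0.053). A further quantile normalization gave Cd40lg -0.359 for tolerised minus unimmunised and -0.474 for abatacept minus primed, and array weights gave -0.452 for the former, none of them called. Array weights turned the uncalled Cd40lg interaction for abatacept minus control IgG to -0.084.

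With Eif2s3y as a covariate the Cd40lg differences that lost their call were 1.531 (primed minus unimmunised), -0.336 (tolerised minus unimmunised), -0.674 (abatacept minus primed), -1.551 (tolerised minus control IgG) and 1.193 (abatacept minus tolerised). For Cd40 they were 0.011 and 0.354 (primed and control IgG minus unimmunised) and -0.039 and -0.382 (abatacept minus primed and minus control IgG). Il12b gave -0.092 and 0.135 (primed and control IgG minus unimmunised), 0.308 and 0.081 (abatacept minus primed and minus control IgG) and 0.346 and 0.119 (tolerised minus primed and minus control IgG), none called. Eif2s3y differs between most of these groups, and the SE of Cd40lg primed minus unimmunised went from 0.169 to 2.988. With this covariate at most 1 of 10322 genes was called in each of these Cd40lg comparisons. At most 1 of 10203 was called in each of these Cd40 comparisons.

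With other-cell markers as a covariate Cd40lg minus unimmunised was 0.28 in primed, 0.008 in control IgG, -0.492 in abatacept and -1.367 in tolerised arrays, and 0.875 for abatacept minus tolerised, none called. Il12b was 0.448 and 0.573 (primed and control IgG minus unimmunised), -0.389 (abatacept minus control IgG) and 0.099 (abatacept minus tolerised), none called. Calls over all genes fell too, for primed minus unimmunised from 4896 to 501 in CD4+ and from 3941 to 964 in CD11c+ arrays.

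Relative to own-cell markers, a scale added after the data were seen, Cd40lg minus unimmunised was -0.044, -0.199 and -0.53 in primed, control IgG and abatacept arrays, and -0.487 for abatacept minus primed. Il12b minus unimmunised was -0.692, -0.217, -0.062 and -0.691 in primed, control IgG, abatacept and tolerised arrays. Its other differences were 0.474 (control IgG minus primed), 0.63 (abatacept minus primed), 0.001 (tolerised minus primed), 0.156 (abatacept minus control IgG) and 0.629 (abatacept minus tolerised). The scale moves the median of all genes, by between -1.18 and 0.971 in CD11c+ arrays. The mean of all probe sets gave Il12b 0.492 (tolerised minus unimmunised), -0.506 (abatacept minus primed) and -0.529 (tolerised minus control IgG), all called, and Cd40 -0.016 (tolerised minus control IgG). The other probe set, also added, gave 0.727, -0.647 and -0.619 for the same Il12b differences, all called but with groups below the array medians, and Cd40 0.018 (abatacept minus unimmunised) and -0.123 (tolerised minus control IgG).

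Leaving out single arrays changed a call or a sign in 10 of the 30 differences. Their ranges were -0.616 to -0.297 (tolerised minus unimmunised) and -0.627 to -0.501 (abatacept minus primed) for Cd40lg. They were -0.125 to 0.064 (abatacept minus unimmunised), -0.13 to 0.378 (control IgG minus primed), -0.012 to 0.328 (tolerised minus primed) and -0.22 to 0.289 (tolerised minus control IgG) for Cd40. For Il12b they were -0.518 to -0.229 (abatacept minus primed), -0.639 to -0.349 (abatacept minus control IgG), -0.507 to -0.319 (tolerised minus control IgG) and -0.201 to 0.088 (abatacept minus tolerised). Deviations of same-numbered arrays correlated above 0.1 in 2 of 30 pairs in CD4+ arrays (highest 0.132) and 8 of 30 in CD11c+ arrays (highest 0.325). No comparison had all its pairs above 0.1. With 3 pairs per comparison, these correlations cannot decide whether same-numbered arrays share more than a number. With a replicate block no call on the 3 genes changed (Cd40lg tolerised minus primed -1.873, adjusted p = 7.4e-05), nor did a salivary gene covariate change one for Cd40 or Il12b. Of 640 recomputed list counts, 599 stayed within 1.5 times and 41 did not. Where no cause is named, the cause was not tested.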
